A study of Mus musculus with 20 samples.

Results

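Toll-like receptors and the proteins they work with were examined in epididymal fat, the fat pad next to the testis, of mice fed a high-fat diet. The group held 10 of the 19505 genes with a named probe set: Tlr1, Tlr2, Tlr4, Tlr7, Tlr8, Tlr9, Tlr13, Cd14, Ly96 and Myd88. They were chosen by gene symbol in the annotation of the array, and each had 1 probe set, so no member had to be picked among several. The study measured total RNA of the fat pad on expression arrays, 1 array per mouse, in 20 male C57BL/6 littermates aged 28 weeks. Every mouse carried TNF-αFlox/FLox, that is, both copies of the gene for TNF-α flanked by loxP sites. The 10 mice called wt were LyzMcre-/-, so they had the floxed gene but no Cre. The 10 mice called cre were LyzMcre+/-, with Cre driven by the lysozyme M gene (Lyz2), which is active in macrophages, monocytes and neutrophils. Cells without this Cre keep Tnf in both genotypes, and the whole fat pad holds both kinds of cell. Chow was given up to 10 weeks of age, followed by 18 weeks on a purified diet in which fat supplied 40% of calories. The arrays came in 2 batches of 5 wt and 5 cre animals each. The study compared the genotypes to find genes whose level differs when macrophages lack TNF-α.

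Toll-like receptors are membrane proteins of the innate immune system that recognise molecules of microbes and of damaged cells. Some sit on the cell surface and bind lipids and lipoproteins, with CD14 and MD-2 (the product of Ly96) as helpers of TLR4, while others sit in endosomes and bind nucleic acids. Most of them signal through the adaptor MyD88 to the transcription factor NF-kB and to genes of cytokines, Tnf among them. In obese fat these receptors are best known from the macrophages that gather there, and TLR4 also for its response to saturated fatty acids.

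Values are log2 signals, on which a difference of 1 is a doubling, and every difference is cre minus wt. Tnf, the deleted gene, lay between 5.78 and 7.80 in wt (median 6.48, n = 10) and between 3.91 and 5.34 in cre (median 4.58, n = 10), with no overlap. Adipocyte markers were present in every mouse: the mean of the 7 genes measured, Adipoq and Lep among them, ranged from 15.91 to 18.15 in wt and from 17.46 to 18.31 in cre. Array medians lay between 6.49 and 6.58. Markers of other tissues stood apart in 5 mice, by more than 1 log2 unit over every other mouse of the genotype. In wt replicate 6 the mean of 6 seminal vesicle genes was 16.9, against at most 5.98 in the other wt mice. The others were wt replicate 4 (liver and exocrine pancreas), cre replicate 2 (bladder epithelium and brown adipocytes), cre replicate 3 (seminal vesicle) and cre replicate 9 (erythroid cells). Without these 5 mice the differences described below were -0.73 for Tlr1, -0.33 for Tlr2, -0.20 for Tlr4, -1.14 for Tlr7, -0.64 for Tlr9, -0.55 for Tlr13, -0.41 for Cd14 and -0.50 for Myd88, with adjusted p from 0.777 to 0.914 over the 10 members. Those of Ly96 and Tlr8 stand beside their results.

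All 10 members had a lower mean in cre than in wt, where 49.3% of all probe sets did, and for none did the difference pass adjustment. The median difference of the members was -0.39, against 0.01 over all 19505 genes. It was -0.75 in batch 1 alone and -0.09 in batch 2 alone, -0.22 without cre replicate 9 and -0.10 without cre replicates 7 and 9, the mice lowest in Adgre1. Tlr8, Tlr7 and Ly96 were furthest apart, each about 1 log2 unit lower in cre, while Tlr4 had nearly the same level in both genotypes. After Benjamini-Hochberg adjustment in limma, 0 of the 10 members passed 0.05, where 0.0045% of the 22206 probe sets did, Tnf alone. At an unadjusted p under 0.05, 4 members were lower and 0 higher, where 3.05% of all probe sets were lower and 6.29% differed in either direction. The study selected genes by a fold of 1.5 or more with an unadjusted p below 0.05. Tlr7, Tlr8 and Ly96 met that selection, as did 0.662% of all probe sets in that direction. With the macrophage gene Adgre1 as a covariate, 9 members had a lower adjusted level in cre, where 49.7% of all probe sets did, and 0 passed adjustment, where 0.00901% did. In that fit 4 members were lower at an unadjusted p under 0.05, against 3.38% of all probe sets (6.63% in either direction), and Tlr7, Tlr8 and Ly96 met the selection, against 0.54%. With the macrophage gene Csf1r in place of Adgre1, Tlr7, Tlr8 and Ly96 met it too. With Itgam, the macrophage list or the adipocyte list, Tlr8 alone met it. Markers of other tissues also differed in 1 direction: the 5 mesothelium genes were all lower in cre (median -0.47) and the 7 liver genes all higher (median 1.36), with 0 past adjustment. The mesothelium mean ranged from 6.96 to 8.65 in wt and from 6.49 to 8.37 in cre, and the liver mean from 6.10 to 14.85 in wt and from 7.23 to 12.99 in cre. Their part in the members' differences was not tested. In a fat pad, fewer cells of a type and less RNA per cell cannot be told apart.

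**Figure D1:**
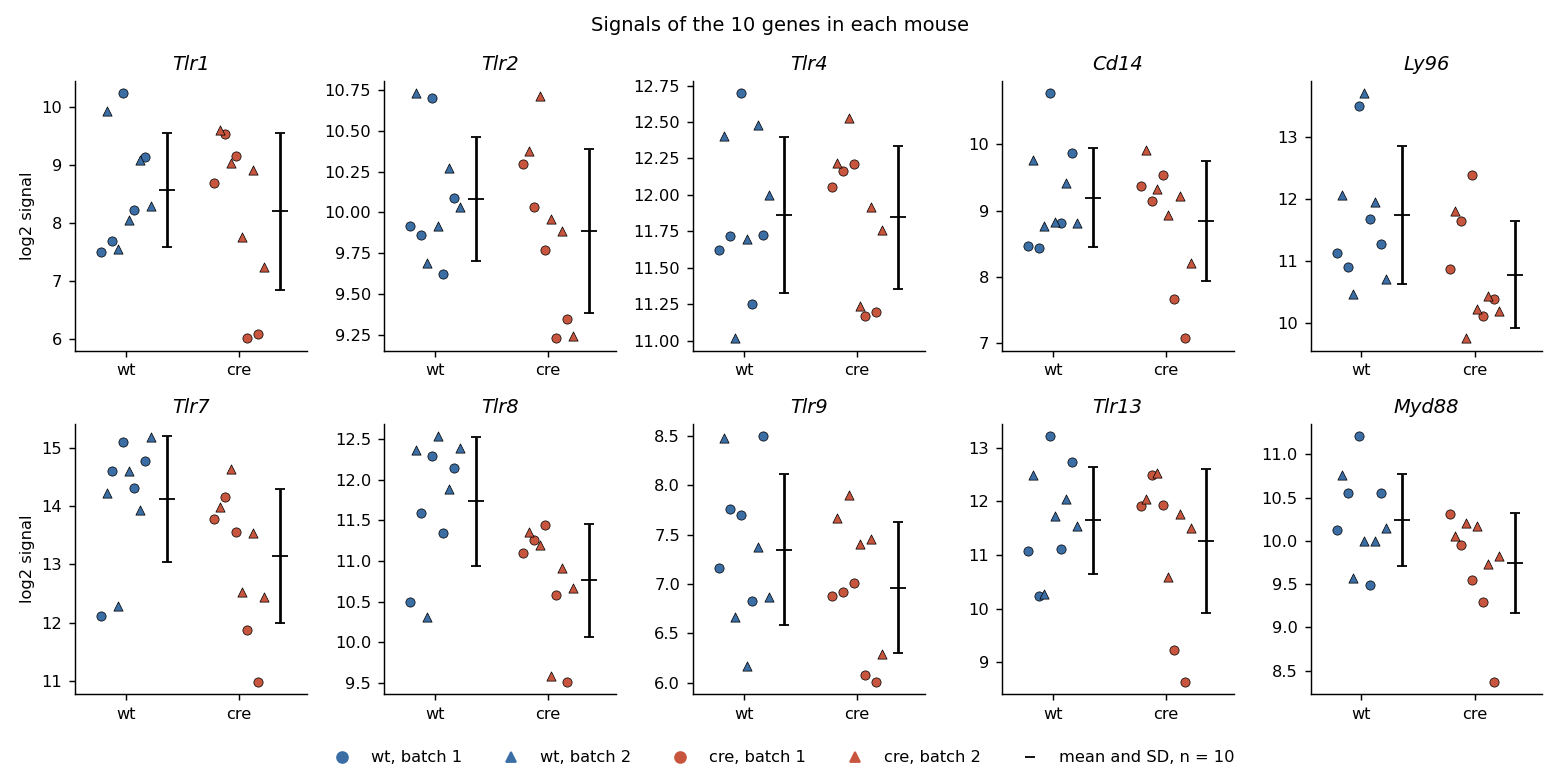
Log2 signal (y axis, a scale of its own in each panel) of each member in each mouse (points), with the mean and SD of 10 wt and 10 cre mice and the batches marked. The genotypes overlap in every panel, and in the Tlr8 panel each of the 10 cre mice lies below the wt mean.

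Adgre1 encodes F4/80, the classical surface marker of mouse macrophages, and was used as the measure of macrophage RNA in each mouse. It ranged from 11.4 to 14.3 in wt (median 12.6) and from 10.7 to 13.9 in cre (median 12.7). The groups overlapped, with wt replicate 5 the highest of all mice and cre replicates 9 and 7 the lowest, at 10.7 and 11.0. Its difference was -0.28 (95% interval -1.06 to 0.51, adjusted p = 0.912). Within batch 1 the difference was -0.67, and within batch 2 it was 0.12. Of 11 macrophage genes measured, 10 were lower in cre and 1 higher, with 0 past adjustment. Their mean per mouse ranged from 12.03 to 13.53 in wt and from 11.00 to 13.10 in cre. The part that macrophage content has in the genotype differences was not tested as a cause. The fits below give each difference with and without Adgre1 as a covariate.

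Among the receptors of the cell surface, none differed between genotypes beyond its spread. Tlr1, which pairs with TLR2 to bind triacylated lipoproteins, ranged from 7.50 to 10.24 in wt (median 8.26) and from 6.01 to 9.60 in cre (median 8.80). The cre median was above the wt median although the cre mean was lower, and 3 cre mice lay below every wt mouse. The difference was -0.37 (SE 0.48, adjusted p = 0.906), and -0.05 with Adgre1 in the fit (95% interval -0.51 to 0.41, adjusted p = 0.979). Leaving out 1 mouse moved it between -0.55 (without cre replicate 3) and -0.13 (without cre replicate 7), in the fit without Adgre1. Tlr1 lies on chr5:64924680-64933600 (mm10).

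Tlr2, the shared partner of TLR1 and TLR6 for bacterial lipoproteins, ranged from 9.62 to 10.73 in wt (median 9.98) and from 9.23 to 10.71 in cre (median 9.92). It had the narrowest range of the members in wt, and the groups overlapped, with 3 cre mice below every wt mouse. The difference was -0.20 (SE 0.19, 95% interval -0.60 to 0.20, adjusted p = 0.878), and -0.09 with Adgre1 (adjusted p = 0.914). The gene lies on chr3:83836272-83841824.

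Tlr4, the receptor for bacterial lipopolysaccharide, ranged from 11.02 to 12.70 in wt (median 11.72) and from 11.17 to 12.53 in cre (median 11.98). The groups covered nearly the same span, and 6 of 10 cre mice were above the wt mean. The difference was -0.02, with a 95% interval from -0.47 to 0.44, and with Adgre1 it was 0.10 (adjusted p = 0.918). The sign changed with the processing: quantile normalization of the deposited values gave 0.01 and array weights 0.05. The gene lies on chr4:66827551-66846581.

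The co-receptors of TLR4 were compared between genotypes, not with one another. Cd14, which hands lipopolysaccharide to TLR4, ranged from 8.43 to 10.77 in wt (median 8.82) and from 7.07 to 9.92 in cre (median 9.18). The highest wt mouse was replicate 5 and the lowest cre mouse was replicate 9, the same mice that were highest and lowest in Adgre1. The difference was -0.35 (SE 0.34, adjusted p = 0.878), and -0.13 with Adgre1 (95% interval -0.47 to 0.22, adjusted p = 0.904). Within batch 1 it was -0.71 (exact p = 0.333) and within batch 2 it was 0.01 (exact p = 0.984).

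Ly96 encodes MD-2, the subunit of the TLR4 complex in which the lipid of lipopolysaccharide is held. It ranged from 10.47 to 13.71 in wt (median 11.48) and from 9.75 to 12.39 in cre (median 10.40). The groups overlapped, with 6 cre mice below every wt mouse, while wt replicates 6 and 5 stood above every cre mouse at 13.7 and 13.5. The difference was -0.96 (SE 0.41, 95% interval -1.80 to -0.11, unadjusted p = 0.028, adjusted p = 0.774), a 1.94-fold lower level in cre. An exact permutation test of genotype within batches gave p = 0.0491, two-sided and unadjusted. With Adgre1 in the fit the difference was -0.84 (SE 0.39, adjusted p = 0.749). Ly96 lies on chr1:16688456-16709605.

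The Ly96 difference was in the same direction in both batches, at -0.62 within batch 1 (exact p = 0.365) and -1.30 within batch 2 (exact p = 0.0556). An exact test of 5 against 5 mice cannot give a p under 0.00794. Without wt replicate 5, wt replicate 6, cre replicate 4 or cre replicate 7, Ly96 no longer met the study's selection, with differences from -0.87 to -0.71. Without the 5 mice set apart by markers of other tissues it was -0.98 (adjusted p = 0.794). In place of Adgre1, Itgam gave -0.76, the macrophage list -0.73 and the adipocyte list -0.48 (adjusted p = 0.932). Ly96 did not meet the selection with any of these 3, but met it with Csf1r as the covariate. The 7 adipocyte markers all had a higher mean in cre, with 0 past adjustment, and their part in the result was not tested further.

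Of the receptors in endosomes, Tlr7 and Tlr8, which bind single-stranded RNA and its breakdown products and lie next to each other on the X chromosome, were lower in cre by like amounts. Tlr7 (chrX:167303380-167330574) ranged from 12.12 to 15.20 in wt (median 14.46) and from 10.98 to 14.64 in cre (median 13.55). The groups overlapped, with 8 cre mice below the wt mean and 3 wt mice above every cre mouse, and wt replicate 1 the lowest wt mouse. The difference was -0.97 (SE 0.46, 95% interval -1.92 to -0.02, unadjusted p = 0.0455, adjusted p = 0.788). With Adgre1 it was -0.73 (SE 0.33, 95% interval -1.42 to -0.04, adjusted p = 0.749). The exact permutation test within batches gave p = 0.0766, and the differences were -1.32 within batch 1 (exact p = 0.143) and -0.62 within batch 2 (exact p = 0.373). In 11 of the 20 fits that each left out 1 mouse, Tlr7 no longer met the study's selection, with differences from -0.97 to -0.73. Those mice were wt replicates 2, 3, 5, 6, 7, 9 and 10 and cre replicates 6, 7, 9 and 10. With Itgam or the macrophage list in place of Adgre1 it was -0.53 and -0.56, and did not meet the selection. With Csf1r as the covariate Tlr7 met it.

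Tlr8 (chrX:167241123-167264329) had the smallest p of the members. It ranged from 10.31 to 12.53 in wt (median 12.01) and from 9.52 to 11.44 in cre (median 11.01). Each of the 10 cre mice was under the mean of wt, which 1.18% of all probe sets showed, and 7 wt mice lay above every cre mouse. The groups overlapped through 3 wt mice, wt replicates 4 and 1 the lowest of them. The difference was -0.97 (SE 0.31, 95% interval -1.62 to -0.33, unadjusted p = 0.00498, adjusted p = 0.77), a 1.96-fold lower level in cre. The exact permutation test gave p = 0.0122, unadjusted. With Adgre1 the difference was -0.83 (SE 0.26, 95% interval -1.37 to -0.30, adjusted p = 0.686).

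Tlr8 had a lower mean in cre in both batches, with differences of -0.79 in batch 1 (exact p = 0.127) and -1.15 in batch 2 (exact p = 0.0556). It met the study's selection in all 20 fits that left out 1 mouse, both with and without Adgre1. Without the 5 mice that stood apart by markers of other tissues it was -1.05 (adjusted p = 0.777). Other covariates in place of Adgre1 gave -0.90 (Csf1r, the receptor for the macrophage growth factor), -0.74 (Itgam, the integrin CD11b), -0.72 (the macrophage list without Adgre1) and -0.72 (the adipocyte list). No alternative brought its adjusted p under 0.343, and the difference failed the adjustment over all probe sets in each.

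Tlr9, the receptor for unmethylated CpG DNA, ranged from 6.17 to 8.50 in wt (median 7.27) and from 6.01 to 7.91 in cre (median 6.96). The groups overlapped over most of their span, and the batches went opposite ways. The difference was -1.01 within batch 1 (exact p = 0.0317) and 0.24 within batch 2 (exact p = 0.627), and the pooled value was -0.39 (adjusted p = 0.848). The interaction of genotype and batch was 1.25 (unadjusted p = 0.0343, adjusted p = 0.663). It passed adjustment in 0 of the 10 members and 0.0% of all probe sets, while 7.41% of all had an unadjusted p under 0.05. Tlr9 lies on chr9:106222598-106226876.

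Tlr13, a receptor of mice for bacterial ribosomal RNA that human cells lack, ranged from 10.24 to 13.21 in wt (median 11.63) and from 8.64 to 12.53 in cre (median 11.83). The lowest values were those of cre replicates 9 and 7, and 6 cre mice were above the wt mean. The difference was -0.38 (SE 0.48, adjusted p = 0.902), and -0.05 with Adgre1 (95% interval -0.44 to 0.34, adjusted p = 0.972). Without cre replicates 7 and 9, a choice made after the values were seen, the difference without the covariate was 0.23. The gene lies on chrX:106143275-106160493.

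Myd88, the adaptor that most Toll-like receptors share, ranged from 9.48 to 11.21 in wt (median 10.14) and from 8.37 to 10.31 in cre (median 9.89). The groups overlapped, with 9 cre mice below the wt mean and 4 wt mice above every cre mouse. The difference was -0.49 (SE 0.24, unadjusted p = 0.0498, adjusted p = 0.792), and -0.37 with Adgre1 (SE 0.17, adjusted p = 0.749). The exact permutation test gave p = 0.0663. The difference was -0.89 within batch 1 (exact p = 0.0714) and -0.10 within batch 2 (exact p = 0.706). Without cre replicates 7 and 9 it was -0.25 (adjusted p = 0.947). The gene lies on chr9:119335934-119340018. The batch coefficient itself passed adjustment in 0 of the 10 members and in 0.0% of all probe sets.

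**Figure D2:**
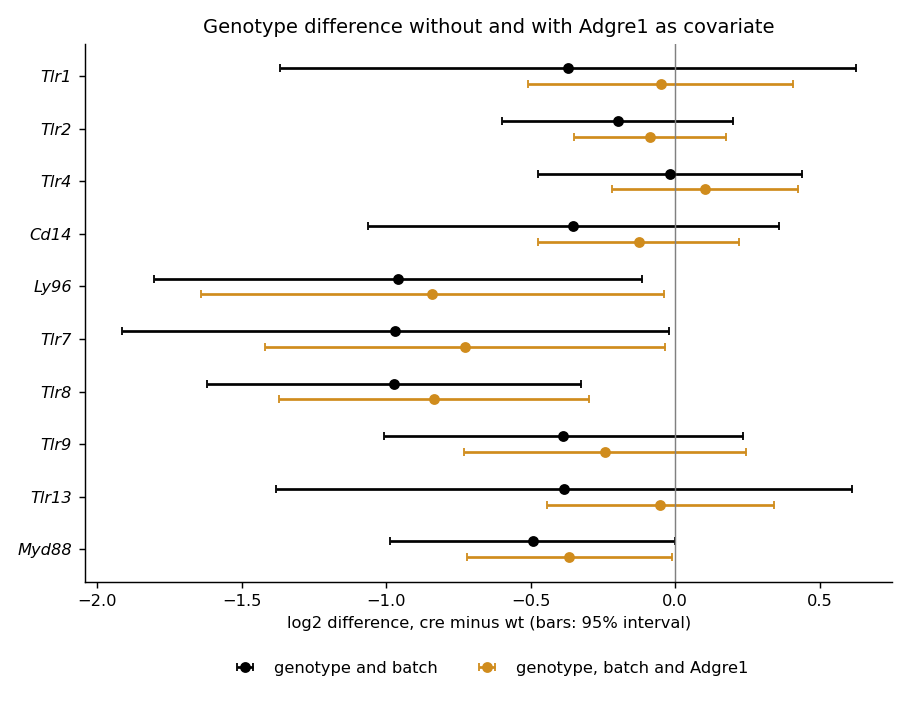
Log2 difference, cre minus wt, of each member with its 95% interval in the limma fit without and with Adgre1 as a covariate, for 10 wt and 10 cre mice. Tlr8, Tlr7, Ly96 and Myd88 keep an interval below 0 in both fits, while Tlr1 and Tlr13 move to -0.05 with Adgre1.

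Across mice of the same genotype and batch, 9 of the 10 members had a positive slope on Adgre1 past adjustment. The slope, in log2 units of the member per log2 unit of Adgre1, failed adjustment for Ly96 alone, and 8.82% of all probe sets passed (6.26% with a positive and 2.56% with a negative slope). Tlr13 and Tlr1 had slopes of 1.20 (SE 0.11, adjusted p = 3.32e-07) and 1.16 (SE 0.13, adjusted p = 2.77e-06). Tlr7 and Cd14 followed at 0.87 (SE 0.19) and 0.81 (SE 0.10). Tlr2, Tlr4, Tlr8, Tlr9 and Myd88 had slopes from 0.40 to 0.52. The median slope of the members was 0.51, against -0.02 over all genes. Ly96 had a slope of 0.43 with a 95% interval from -0.03 to 0.89 (adjusted p = 0.261).

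Correlations with Adgre1 after the means of the 4 cells of genotype and batch were subtracted were highest for Tlr13, Tlr1 and Cd14, while Tlr7, with the third highest slope, had r = 0.705. Tlr13 had r = 0.934 and rho = 0.928 (n = 20, permutation p = 3e-05, adjusted over the 10 members 0.000133), and r = 0.916 without the 2 mice farthest from the Adgre1 median. Tlr1 had r = 0.907 (rho 0.919, permutation p = 4e-05, adjusted 0.000133). Cd14 had r = 0.898 (rho 0.875, permutation p = 0.00011, adjusted 0.000275). Within batch 1 the correlations of Tlr13, Tlr1 and Cd14 were 0.983, 0.942 and 0.949, and within batch 2 they were 0.768, 0.822 and 0.725. The other members apart from Ly96 lay between r = 0.651 for Tlr9 and r = 0.843 for Tlr2, with adjusted permutation p-values of at most 0.00301. Within batch 1 these 6 had r from 0.641 to 0.875, and within batch 2 from 0.601 to 0.911. Without the 2 farthest mice, wt replicate 5 and cre replicate 3, they ran from 0.628 for Tlr8 to 0.815 for Tlr2.

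Ly96 stood lowest, at r = 0.457 (rho 0.489, permutation p = 0.0562), and at r = 0.293 without the 2 farthest mice. Within batch 1 its correlation with Adgre1 was 0.765, and within batch 2 it was 0.0148. Wt replicate 6, with the highest Ly96 level and the seminal vesicle markers, is in batch 2. Cre replicate 4, also in batch 2, had the lowest Ly96 level of all mice, 9.75, and the highest Adgre1 level of the cre mice, 13.9. Without wt replicate 6 the Ly96 slope was 0.56 and passed adjustment (adjusted p = 0.032).

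Tlr7 had a higher r with Adgre1 in cre than in wt, but the difference of its slopes did not pass adjustment. Its r was 0.981 in the 10 cre mice (adjusted permutation p = 0.0011) and 0.400 in the 10 wt mice (adjusted permutation p = 0.306). In wt, replicate 3 had the lowest Adgre1 level, 11.4, and a Tlr7 level of 14.6, above the wt median. The slope in cre minus that in wt was 0.65 with a 95% interval from -0.11 to 1.40 (adjusted p = 0.995). For the other 9 members the adjusted p of this difference was at least 0.995 as well. A lower r in wt was not particular to Tlr7. For Tlr8 it was 0.55 in wt and 0.79 in cre, for Tlr9 0.53 and 0.83, and for Tlr4 0.69 and 0.91. Cd14 alone went the other way, at 0.90 in wt and 0.89 in cre.

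Which slopes passed adjustment depended on which mice were in the fit. Without the 5 mice set apart by other tissues, Tlr1, Tlr2, Tlr4, Tlr13 and Cd14 passed adjustment, where 6.12% of all probe sets did. Without cre replicates 7 and 9, the mice lowest in Adgre1, the members past adjustment were these 5 as well, where 3.08% of all did. Tlr8 no longer passed without any one of wt replicates 2, 4, 5 and 9 or cre replicates 1, 2, 3 and 9, with slopes from 0.42 to 0.54 and adjusted p from 0.0512 to 0.146. Tlr9 did not pass without cre replicate 9 (slope 0.52, adjusted p = 0.0532). In batch 2 alone 0 members passed, and neither did any probe set (0.0%), so this count says nothing about the members. Tlr1 had a slope of 1.19 there (adjusted p = 0.226).

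**Figure D3:**
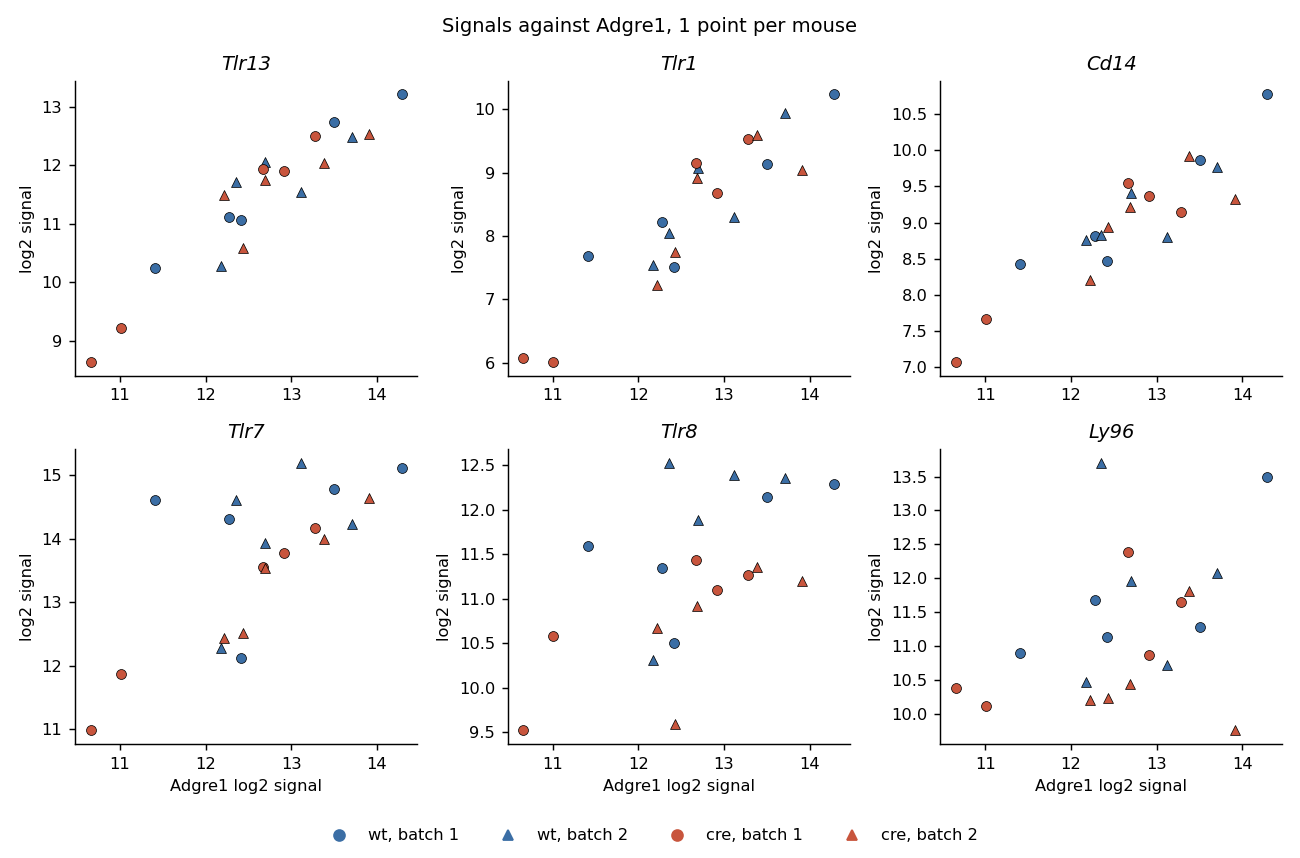
Log2 signal of 6 members (y axis) against that of Adgre1 in the same mouse (x axis), with 10 wt mice in blue, 10 cre mice in red and the batches by shape. Tlr13, Tlr1 and Cd14 lie close to a line in both genotypes, while Ly96 and, in wt, Tlr7 scatter widely.

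Promoters are shown for Tlr13, the member with the steepest slope on Adgre1, and Tlr8, the member with the smallest p between genotypes. Each is the 250 bases before the start of the gene in RefSeq's annotation of GRCm38.p6, on the strand of the gene. Capitals mark the letters GAGGAA, or TTCCTC where they lie on the other strand. These letters are typical of sites of PU.1, a transcription factor of macrophages. The Tlr13 window is chrX:106143025-106143274 on the plus strand, and the Tlr8 window is chrX:167264330-167264579 on the minus strand.
Tlr13: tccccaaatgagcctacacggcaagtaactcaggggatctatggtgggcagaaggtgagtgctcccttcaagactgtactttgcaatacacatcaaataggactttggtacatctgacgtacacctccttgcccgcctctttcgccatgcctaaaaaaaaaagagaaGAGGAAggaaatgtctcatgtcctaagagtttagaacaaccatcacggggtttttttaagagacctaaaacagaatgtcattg
Tlr8: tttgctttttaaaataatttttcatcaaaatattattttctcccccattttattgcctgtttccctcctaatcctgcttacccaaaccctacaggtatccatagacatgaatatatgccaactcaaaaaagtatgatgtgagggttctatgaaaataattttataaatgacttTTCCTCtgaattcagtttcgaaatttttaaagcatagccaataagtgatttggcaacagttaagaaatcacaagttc
The match begins 83 bases before the start in Tlr13 and 77 bases before it in Tlr8. Of the 6 members whose promoter was searched, 4 held GAGGAA on either strand (Tlr1, Tlr8, Tlr9 and Tlr13), and so did 23.3% of the 32851 promoters of this length. No window of Tlr4, Tlr7, Cd14 or Ly96 was searched. The members are counted by gene and that share by promoter. Another Tlr1 window, chr5:64932700-64932949, held no GAGGAA. A repeat of GAAA spaced as in sites of interferon regulatory factors was found in Myd88, 40 bases before its start, and in 2.98% of all promoters. TGANTCA, the site of AP-1, was found in Tlr9 and in 6.75% of all promoters. Both strands were searched for each of the 3 motifs. A match is a run of letters in this window and was not tested for binding.

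The members varied together to different degrees. Over the 45 pairs, r of the values with cell means subtracted ranged from 0.114 to 0.944 with a median of 0.70 (n = 20 mice, no test, and each pair shares its arrays). Cd14 and Tlr1 were closest at 0.944, then Tlr13 and Tlr1 at 0.917, Tlr8 and Tlr7 at 0.894 and Cd14 and Tlr13 at 0.880. Ly96 was least like the rest, with a median r of 0.519 and its lowest value, 0.114, with Tlr9. Its r with Myd88 was 0.351.

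**Figure D4:**
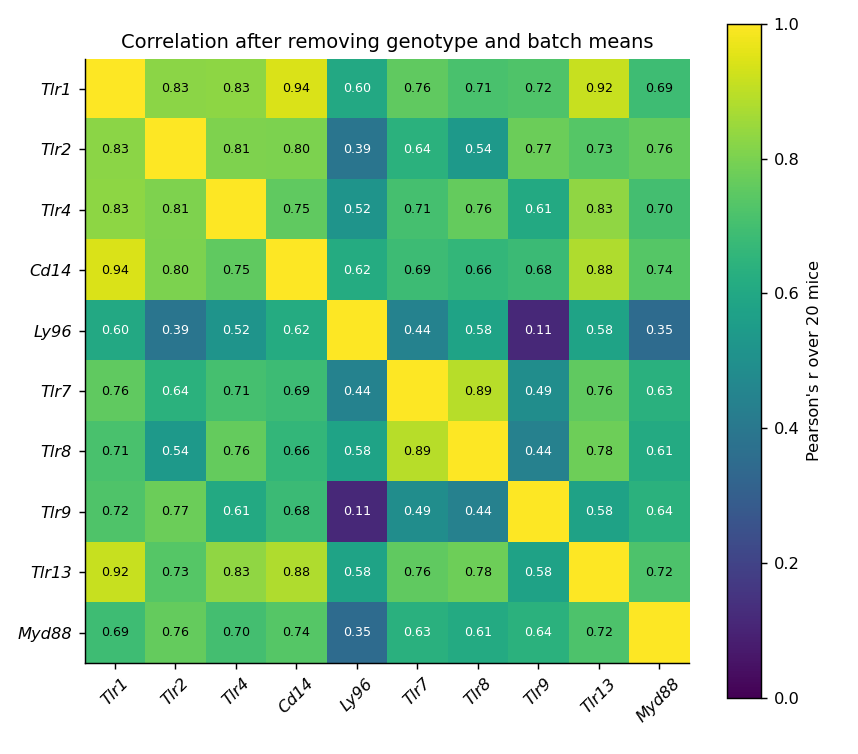
Pearson r between members over 20 mice after subtraction of the means of the 4 cells of genotype and batch. The block of Tlr1, Tlr13 and Cd14 holds values of 0.880 and above, and the row of Ly96 holds the lowest values, down to 0.114.

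The 3 named genes most like each member were taken by r across the 20 mice, with genotype and batch cell means subtracted. For Tlr1 they were C1qb (r = 0.962), Myof (0.955) and C1qa (0.954), where C1qa and C1qb encode chains of complement C1q. For Tlr13 they were Cd84 (r = 0.980), Apobec1 (0.978) and Cybb (0.973), the last a subunit of the phagocyte oxidase. For Cd14 they were Folr2 (r = 0.961), Arhgap25 (0.957) and the chemokine Ccl3 (0.948). Tlr9 was most like Il2rb (r = 0.956), a chain of the interleukin-2 receptor, then H4c18 (0.928) and H2-M3 (0.913).

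Tlr2 was most like Naip5 (r = 0.908), a sensor of bacterial flagellin, then Runx1 (0.901) and Adam17 (0.899), the protease that releases TNF-α from the cell surface. Tlr4 was most like Plxnc1 (r = 0.921), Mef2a (0.916) and Agfg1 (0.909). Tlr7 was most like Hmox1 (r = 0.891), the haem-degrading enzyme, then Scarf2 and Adam22 (both 0.884). Tlr8 was most like Lilr4b (r = 0.915), Cct5 (0.900) and Arhgef10l (0.890). Ly96 was most like Tra2a (r = 0.919), Frrs1 (0.915) and Sptlc2 (0.905). Myd88 was most like Elf2 (r = 0.896), Pdlim4 (0.890) and Tnfrsf1b (0.878), a receptor for TNF-α. These are the highest of all named genes, so their height is set in part by the number searched, and none was tested.

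Around the members, 59 of 65 entries of 6 pathway lists were measured, and 0 passed adjustment between genotypes. At an unadjusted p under 0.05, 3 were lower in cre (Tlr3, Irf7 and Cxcl2) and 2 higher (Tlr12 and Sarm1). Over all probe sets 3.05% were lower and 3.24% higher by that rule, so these counts are near the background. Of the 5 other Toll-like receptors, 3 were lower and 2 higher in cre (median difference -0.17). Tlr3, the endosomal receptor for double-stranded RNA, averaged 10.90 ± 0.32 over the wt mice and 10.58 ± 0.26 over the cre mice (SD, n = 10 per group), a difference of -0.32 (unadjusted p = 0.0322, adjusted p = 0.781). Tlr12, a receptor for a profilin of parasites, was dim, averaging 4.58 in wt and 4.94 in cre, under every array median. It had a difference of 0.36 (adjusted p = 0.781), and Tlr11 one of -0.17 (adjusted p = 0.9). Of the 10 accessory and trafficking proteins, 6 were lower and 4 higher (median -0.26), and 0 had an unadjusted p under 0.05. Those with the smallest p were Slc15a4 (-0.35, adjusted p = 0.838), Lgmn (-0.48, adjusted p = 0.848) and Unc93b1, the chaperone that carries endosomal receptors to their place (-0.41, adjusted p = 0.865).

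Of 13 adaptors and kinases measured, 9 were lower and 4 higher in cre (median -0.11). Irf7, the transcription factor that switches on type I interferon genes downstream of TLR7 and TLR9, averaged 7.68 ± 0.54 over the wt mice and 6.99 ± 0.51 over the cre mice (SD, n = 10 per group). Its difference of -0.69 had an unadjusted p of 0.00544 and an adjusted p of 0.77, and was -0.71 with Adgre1 in the fit. Map3k7 (0.23, adjusted p = 0.811) and Ikbke (-0.17, adjusted p = 0.829) followed by p. Of 9 inhibitors measured, 7 were lower and 2 higher (median -0.06). Sarm1 had a difference of 0.49 (adjusted p = 0.77) at levels of 3.90 ± 0.46 over the wt mice and 4.39 ± 0.43 over the cre mice (SD, n = 10 per group). Pik3ap1 had a difference of -0.33 and Sigirr of -0.09.

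Of the 9 endogenous ligands, 6 were lower and 3 higher (median -0.10), with Hspd1 at 0.27 (adjusted p = 0.824), the serum amyloid Saa3 at -0.51 (adjusted p = 0.832) and tenascin C, Tnc, at -0.27 (adjusted p = 0.869). Of 13 response genes measured, 9 were lower and 4 higher (median -0.20). The neutrophil chemokine Cxcl2 had a difference of -0.54 (unadjusted p = 0.043, adjusted p = 0.785), Ccl5 of -0.96 (adjusted p = 0.829) and Il1b of -0.27 (adjusted p = 0.851).

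Some genes of the pathway lists also had a slope on Adgre1 past adjustment, all of them positive. Over all probe sets 6.26% passed with a positive slope. These counts are from the fit of all 20 mice, and in batch 2 alone no probe set passed (0.0%). Of the 10 accessory proteins, 5 passed. Cd180 and its partner Ly86, a receptor pair related to TLR4 and MD-2, had slopes of 1.22 (adjusted p = 1.98e-07) and 1.08 (adjusted p = 4.47e-05). Lgmn (0.92), Unc93b1 (0.90) and Slc15a4 (0.54) also passed. Of the other Toll-like receptors, Tlr6 passed (0.43, adjusted p = 0.0335). Of the adaptors, 3 of 13 passed: Irf5, Ticam2 and Ticam1, with slopes from 0.32 to 0.33. Irf7 had a slope of -0.08 (adjusted p = 0.792). Of the response genes, 3 of 13 passed: Ccl5 (1.21), Ccl3 (1.16) and Nfkbiz (0.34). Pik3ap1 (0.96) passed among the inhibitors, and Bgn (0.44) and Vcan (0.42) among the ligands. Of the 10 macrophage genes other than Adgre1, 9 passed.

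Other blood cells can also carry these receptors. The mean of 6 neutrophil genes ranged from 6.03 to 7.13 in wt and from 5.89 to 6.85 in cre. The mean of 7 B cell genes ranged from 5.22 to 7.21 in wt and from 5.65 to 7.14 in cre. The mean of 5 genes of plasmacytoid dendritic cells, which carry TLR7 and TLR9, ranged from 6.97 to 7.39 in wt and from 6.68 to 7.55 in cre. This mean rests on Tcf4, at 14.23 in wt and 14.22 in cre, while the group means of Siglech, Cox6a2, Klk1 and Ccr9 lay between 4.31 and 6.49, below or near the array medians. The mean of 4 T cell genes ranged from 5.21 to 8.55 in wt and from 5.65 to 7.25 in cre. In the monocyte list 3 of 4 genes measured were lower in cre and 1 higher. Of 5 conventional dendritic cell genes, 4 were higher in cre and 1 lower. Flt3 among them was dim, averaging 4.27 in wt and 4.86 in cre, with a limma difference of 0.59 (unadjusted p = 0.00703, adjusted p = 0.77). In all these lists 0 genes passed adjustment between genotypes, and their part in the members' differences was not tested. Lyz2, whose promoter drives Cre, had a difference of -1.55 (adjusted p = 0.176), and -1.37 with Adgre1, which passed (adjusted p = 0.000786). Every cre mouse carried both Cre and the Tnf deletion, so their separate parts in this Lyz2 difference cannot be told apart and were not tested.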

How the data were processed

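Total RNA of 20 fat pads was amplified with biotin labelling for arrays, per the labels' protocols. Values deposited by the authors are log2 signals for 22206 probe sets per array. RMA, mm10 and Transcriptome Analysis Console 4.0.2.15 are named in the submitters' processing notes. Background settings, filters and any batch adjustment are not given in the sources used here. Low signals hold background, so differences of dim probe sets are compressed. Genotype, batch and replicate came from the sample titles, which call the mice biological replicates.

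All 19572 probe sets with 1 symbol matched RefSeq by gene number; 2634 were unnamed. For a gene, the probe set with the highest mean was used. limma 3.58.1 in R 4.3.3 fitted genotype and batch, with and without Adgre1, to all probe sets. P-values were adjusted by Benjamini-Hochberg over all of them, with a threshold of 0.05. Intervals are 95%. The limma models were tested on simulated data with known changes, and the other steps were not. Exact permutation tests regrouped genotype within batches (63504 regroupings). Correlations used 100000 resamples within each combination of genotype and batch and were adjusted over 10 relations. Python 3.11.15, NumPy 2.4.6, SciPy 1.17.1, pandas 2.3.3 and matplotlib 3.10.9 were used.

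Named were all members, Adgre1, Tnf, Lyz2, up to 3 genes with the smallest p per pathway list, list genes past adjustment, and the 3 genes most like each member, leaving out predicted genes. The members and lists were chosen with earlier results of these data known. Alternatives were other batch terms, either batch by itself, a replicate block, another variance prior, a filter on dim probe sets, other normalizations, array weights, other covariates, another fold, and leaving out mice. A planned comparison of protein sequences was not run.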

Additional observations from a re-analysis of the deposited data

Results flagged for a closer look

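Myd88 in cre replicate 9 was 8.37, far below the other 9 cre mice, the next of which was 9.29; the gap was 0.473 of the range of the group. This mouse was also the lowest of all in Adgre1 and stood apart by its erythroid markers. Among the 20 groups examined, 10 members in 2 genotypes, this was the 1 such value, and chance gives about 1 in 20.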

How the results depend on the processing

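No member passed adjustment between genotypes under any alternative, with adjusted p from 0.523 to 0.999. With Adgre1 or another covariate in its place, the adjusted p ran from 0.343 to 0.999. The members in the study's selection numbered 3, but 1 with array weights, 1 without cre replicates 7 and 9, 2 in batch 1 alone (Myd88 and Tlr9, none of the 3), 2 in batch 2 alone (Ly96 and Tlr8), 2 with the replicate number as a block and 2 with a trended robust prior (Tlr7 lost in both), and from 1 to 3 when 1 mouse was left out (1 without wt replicate 5, wt replicate 6 or cre replicate 7). With Adgre1 in the fit, Tlr7 lost the selection without any one of 9 mice (differences from -0.73 to -0.47) and Ly96 without any one of 11 (from -0.85 to -0.52). All 10 members were lower in cre, but 6 in batch 2 alone, 6 without cre replicates 7 and 9, and 9 to 10 when 1 mouse was left out. Members with an Adgre1 slope past adjustment numbered 9, but 0 in batch 2 alone (0.0% of all probe sets), 5 without the mice set apart (6.12%), 5 without cre replicates 7 and 9 (3.08%), and 7 to 10 when 1 mouse was left out. No pairing by replicate number was visible: correlations of same-numbered mice ran from -0.315 to 0.302, 4 of 10 were over 0.1, and 1 of 10 mice was closest to its own number. Whether the numbers mark pairs of littermates is not given, and these correlations cannot settle it. With the replicate number as a block, 4 members had a slope past adjustment (Tlr1, Tlr7, Tlr13 and Cd14), where 3.31% of all probe sets did against 8.82% without the block. The median difference was -0.54 to -0.22 when 1 mouse was left out.

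Some differences changed sign. Without Adgre1, Tlr4 was 0.012 in batch 2, 0.0070 after quantile normalization, 0.046 with array weights, 0.15 without cre replicates 7 and 9, and -0.12 to 0.090 when 1 mouse was left out. Without cre replicates 7 and 9, Tlr1 was 0.20, Tlr13 0.23 and Cd14 0.040. In batch 2 alone Tlr9 was 0.24, Tlr13 0.068 and Cd14 0.0073. With Adgre1, Tlr1 was 0.13 in batch 1 alone, 0.051 without cre replicates 7 and 9, and -0.14 to 0.062 when 1 mouse was left out. In place of Adgre1, the macrophage list gave 0.14 for Tlr1 and Itgam 0.018. With Adgre1, Tlr13 was 0.039 in batch 1 alone, 0.019 with array weights, 0.081 without cre replicates 7 and 9, and -0.13 to 0.039 when 1 mouse was left out. In place of Adgre1, the macrophage list gave 0.14 for Tlr13 and Itgam 0.047. With Adgre1, Tlr4 was -0.064 in batch 2 alone and -0.015 without the mice set apart, and Tlr9 was 0.13 in batch 2 alone. The cause of these changes was not tested. The number of arrays limits the precision.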
